A study of Mus musculus with 20 samples.

Results

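The insulin-like growth factor (IGF) genes described here are the ligands Igf1 and Igf2, the receptors Igf1r and Igf2r, the binding proteins Igfbp3, Igfbp4, Igfbp5, Igfbp6 and Igfbp7, and Igfals, which encodes the acid-labile subunit. They are 10 of the 10603 genes that had a measured probe set of 1 gene symbol. They were listed by gene family name, with earlier results of these arrays known, and Igf1 and Igfbp3 are among the genes the study itself lists from these arrays, so their direction is not independent evidence. Igfbp1 and Igfbp2, of the same family, are not among the 10 and were not tested. Visceral fat of 20 female C57BL/6J mice was profiled on Affymetrix mouse genome arrays, 1 array per mouse and 5 mice per group. HF pregnant mice received a diet with 58% of its energy from fat and were taken late in gestation, at E18.5, and HF non pregnant mice received the same diet without mating. Control pregnant mice, also taken at E18.5, and control non pregnant mice received a diet with about 10% of its energy from fat. The study lists sucrose in the HF diet and corn starch in the control diet, so the diets differed in more than fat. Each diet was started in young mice and given for weeks before mating. The depot was the mesenteric fat around the gut, visible lymph nodes were dissected away, and RNA was not pooled. Because E18.5 stands as age beside non pregnant mice too, groups were read from pregnancy status and diet.

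IGF1 and IGF2 are secreted peptides that signal growth, survival and differentiation through IGF1R, a receptor tyrosine kinase, whereas IGF2R mainly takes IGF2 up for degradation in lysosomes. Most of the circulating peptides are bound, and the main complex joins a ligand, IGFBP3 or IGFBP5 and the acid-labile subunit. In fat, IGF1 made by adipocytes and stromal cells acts locally, and growth hormone drives its transcription through JAK2 and STAT5.

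Igfbp3 was higher in pregnant than in non pregnant mice, 3.29-fold on the HF diet (adjusted p = 0.0247) and 2.44-fold with both diets averaged (adjusted p = 0.0288), and it was the 1 member that passed the test in any comparison. Without pregnancy, Igfbp3 in HF non pregnant mice was 1.01-fold that in control non pregnant mice, with a 95% interval of the log2 difference of -0.56 to 0.59. The remaining 9 members did not pass in any of the 7 comparisons. Among them, Igfbp7 and Igf1 in HF pregnant over HF non pregnant mice, Igf2r, which was lower, in control pregnant over control non pregnant mice, and Igfbp4, Igfbp5 and Igfals in HF pregnant over control pregnant mice, had unadjusted p values under 0.05 and are described with their values.

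Values are intensities on a linear scale as normalized by the authors, and they can be compared between mice for a gene but not between genes. The log2 of each intensity was fitted with limma as 4 group means over 19802 probe sets. Differences are given on the log2 scale with their standard error (SE), and p values were adjusted for false discovery (Benjamini-Hochberg) over all these probe sets, with 0.05 as the threshold. The 7 comparisons were the 4 pairs of groups set apart by diet alone or by pregnancy alone, the response to pregnancy on the HF diet minus that on the control diet, and pregnancy and diet each averaged over the other. These comparisons share groups, so their values are given side by side and are not independent of each other.

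The arrays were even in overall level, with medians between 60.7 and 64.7 and with 17646 to 18833 probe sets above 100. The authors' normalization itself brings arrays to a similar level, so this evenness does not describe the samples. Markers of other tissues were uneven, however. Of 6 pancreatic acinar genes, the mean log2 level stood 6.07 above the mean of all arrays in control pregnant mouse 2 and 5.60 above it in control non pregnant mouse 4, against 1.86 or less in the other mice. Liver genes stood 3.59 and 1.90 above their mean in HF non pregnant mice 1 and 2. The level of 6 B cell genes ran from -1.64 to 0.97 in HF pregnant mice and from -0.66 to 2.21 in HF non pregnant mice. In control mice it ran from -2.39 to 1.49 with pregnancy and from -1.85 to 0.60 without it. Of 48 comparisons of 12 marker lists between groups by the two-sided exact permutation test, 2 had p values under 0.05, and neither passed after adjustment (adjusted p = 0.571). The smallest p this test can give with 5 against 5 mice is 0.00794.

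**Figure D1:**
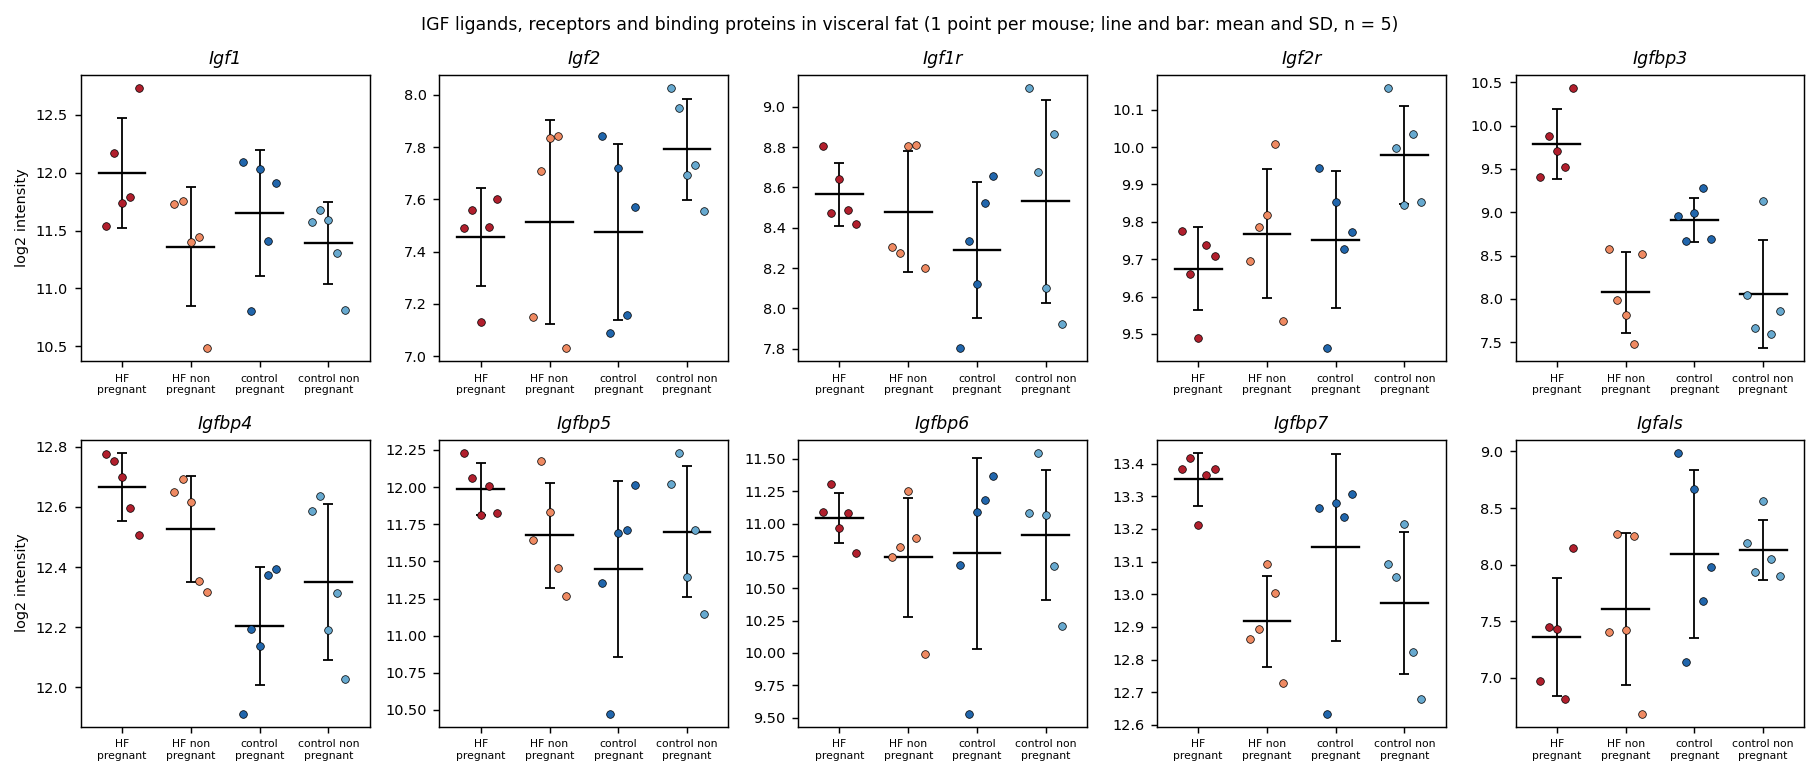
Log2 intensity of each of the 10 genes (vertical axis, own scale per panel) in HF pregnant, HF non pregnant, control pregnant and control non pregnant mice, with 1 point per mouse and the mean and SD as line and bar (n = 5). For Igfbp3 the 5 HF pregnant mice, at 681 to 1389 on the linear scale, lie above all mice of the other groups, of which the highest is at 624.

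Igf1, the ligand through which growth hormone acts on many tissues, had intensities of 2982, 4616, 3415, 3542 and 6817 in HF pregnant mice 1 to 5. HF non pregnant mice had 3389, 3452, 2705, 2784 and 1432. The groups overlapped, and HF pregnant mouse 5 and HF non pregnant mouse 5 lay farthest apart. Control pregnant mice had 4371, 1788, 4198, 2717 and 3839.7, and control non pregnant mice had 3055, 3268, 3085, 2528 and 1800.4, so the range of the control pregnant mice covered that of the control non pregnant mice. The log2 difference in Igf1 was 0.63 (SE 0.29) in HF pregnant over HF non pregnant mice, with an unadjusted p of 0.0395 and an adjusted p of 1.0. It was 0.45 (SE 0.20) in pregnant over non pregnant mice with both diets averaged (unadjusted p = 0.0404, adjusted p = 1.0). Without HF pregnant mouse 5 the first of these was 0.45 and without HF non pregnant mouse 5 it was 0.41. The other 3 probe sets of Igf1 gave 0.45, 0.60 and 0.88 for HF pregnant over HF non pregnant mice, all positive and none past the threshold.

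Igf2, the ligand prominent in fetal growth, had low intensities on its only probe set above 100. They were 179.7, 189, 140.1, 180.2 and 194 in HF pregnant mice and 142, 209, 228, 229 and 131 in HF non pregnant mice. The intensities were 229, 136, 211, 143 and 189.9 in control pregnant mice, and control non pregnant mice had 261, 247, 207, 212 and 188. All groups overlapped, and the log2 differences lay between -0.32 in control pregnant over control non pregnant mice (SE 0.18) and -0.02 in HF pregnant over control pregnant mice (SE 0.18). None of the 7 comparisons gave Igf2 an unadjusted p under 0.05.

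Of the receptors, Igf1r, the tyrosine kinase that carries the signal of both ligands, had intensities of 447, 356, 399.9, 359 and 342 in HF pregnant mice. It had 317, 310.0, 447, 449.6 and 294 in HF non pregnant mice, 223, 323, 279, 368 and 403 in control pregnant mice, and 547, 409, 274, 466 and 242 in control non pregnant mice. The 5 control non pregnant mice alone spanned the values of all other mice but control pregnant mouse 1. The log2 differences between groups lay between -0.24 (control pregnant over control non pregnant, 95% interval -0.68 to 0.20) and 0.28 (HF pregnant over control pregnant, 95% interval -0.16 to 0.72).

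Igf2r, which also sorts lysosomal enzymes, was at 876, 809, 719, 854 and 837 in HF pregnant mice and at 828, 883, 903, 1030.5 and 742 in HF non pregnant mice. Among controls, pregnant mice had 986, 705, 926, 848 and 875, and control non pregnant mice had 1143, 1023, 920.4, 1049 and 925. The highest value was that of a control non pregnant mouse, and 2 control pregnant mice and 1 HF non pregnant mouse lay within the range of this group. The log2 difference was -0.23 in control pregnant over control non pregnant mice (SE 0.10, unadjusted p = 0.0368, adjusted p = 0.963), and -0.14 without control pregnant mouse 2 and control non pregnant mouse 4, the arrays with pancreatic transcripts. With both diets averaged it was -0.16 in pregnant over non pregnant mice (SE 0.07, adjusted p = 1.0). The second probe set of Igf2r gave -0.07 in control pregnant over control non pregnant mice and -0.05 with both diets averaged.

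Among the binding proteins, Igfbp3, the main carrier of IGFs in blood and a protein that restrains their access to IGF1R, had intensities of 681, 944, 838, 733 and 1389 in HF pregnant mice. HF non pregnant mice had 381, 253, 225, 179 and 366. Every HF pregnant mouse was above every HF non pregnant mouse, with the lowest at 681 and the highest at 381. On the control diet, pregnant mice had 496, 406, 508, 624 and 413, and control non pregnant mice had 264, 203, 560.5, 193 and 231. Every control pregnant mouse was above 4 of the 5 control non pregnant mice, and control non pregnant mouse 3 lay within the range of the control pregnant mice. Every HF pregnant mouse was also above every control pregnant mouse. The order of the group means was thus HF pregnant, control pregnant, and then both non pregnant groups, whose mean log2 intensities were 8.07 ± 0.47 in HF non pregnant and 8.06 ± 0.63 in control non pregnant mice (SD, n = 5 each).

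The promoter of Igfbp3 is shown because this gene passed the test, and that of Igfbp7 because its HF pregnant and HF non pregnant mice also did not overlap. Each line is the 250 bases before the transcription start in RefSeq (build GRCm38.p6), on the minus strand, written 5′ to 3′, with motif matches on either strand in capitals. The window of Igfbp3 (chr11:7213924-7214173) held 1 TATATA, a variant TATA box, and that of Igfbp7 (chr5:77408046-77408295) held 1 GGTCA and 4 GC boxes (GGGCGG).
Igfbp3: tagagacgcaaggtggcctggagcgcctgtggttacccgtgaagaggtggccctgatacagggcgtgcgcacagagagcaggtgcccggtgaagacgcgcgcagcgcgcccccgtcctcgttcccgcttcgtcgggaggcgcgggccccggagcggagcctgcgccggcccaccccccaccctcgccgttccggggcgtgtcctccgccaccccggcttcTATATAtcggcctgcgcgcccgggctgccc
Igfbp7: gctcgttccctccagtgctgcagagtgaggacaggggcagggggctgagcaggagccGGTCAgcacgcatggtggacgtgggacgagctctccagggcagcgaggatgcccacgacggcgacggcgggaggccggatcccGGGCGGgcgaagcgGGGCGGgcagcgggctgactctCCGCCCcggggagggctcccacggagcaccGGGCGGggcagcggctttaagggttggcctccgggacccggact

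Motifs were searched on both strands. GGTCA is the half-site bound by estrogen and other nuclear receptors. It was found in 35.2% of 32851 RefSeq promoters of the same length and in 9 of 15 promoters of members. These 9 were of 7 members, among which Igfbp3 was not. The full estrogen response element GGTCANNNTGACC, which contains the half-site, was found in 0.0639% of promoters and in none of the 15 promoters of members. TATATA was found in 5.25% of promoters and, among members, in Igfbp3 alone. TATAAA was found in 12.4% of promoters and in 2 of 15 promoters of members, those of Igfbp4 and Igfbp6. GGGCGG was found in 32.7% and in 7 of 15 promoters of members, which were of 5 members. A match is a run of letters and does not show a site of binding.

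On the HF diet the log2 difference in Igfbp3 between pregnant and non pregnant mice was 1.72 (SE 0.27, adjusted p = 0.0247). The test called 5 of 19802 probe sets in this comparison (0.0252%), and both probe sets of Igfbp3 were among them, while 4.66% of probe sets and 3 of the 10 members, Igfbp3, Igfbp7 and Igf1, had an unadjusted p under 0.05. Groups that did not overlap, with HF pregnant higher, were found for 0.641% of probe sets and for 2 members, Igfbp3 and Igfbp7. The second probe set of Igfbp3 ran from 368 to 716 in HF pregnant mice and from 131 to 213 in HF non pregnant mice, with a log2 difference of 1.52 (SE 0.22, adjusted p = 0.0095). The call on the first probe set was lost when HF pregnant mouse 2, 3 or 5 or HF non pregnant mouse 2, 3 or 4 was left out, with log2 differences of 1.56 to 1.74 and adjusted p values of up to 0.107. It was also lost when only these 2 groups entered the fit (adjusted p = 0.0775).

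On the control diet the log2 difference in Igfbp3 between pregnant and non pregnant mice was 0.86 (SE 0.27, unadjusted p = 0.00568, adjusted p = 0.963), and 0.74 (SE 0.22) on the second probe set. Limma called 0 of 19802 probe sets in this comparison (0.0%), where 2.9% had an unadjusted p under 0.05, among them the 2 members Igfbp3 and Igf2r. Without control non pregnant mouse 3, which had the highest Igfbp3 of its group, the difference was 1.13 (adjusted p = 0.235). The response of Igfbp3 to pregnancy on the HF diet minus that on the control diet was 0.86 (SE 0.39, 95% interval 0.04 to 1.67, unadjusted p = 0.0400, adjusted p = 0.933), so a difference of the responses did not pass. In that contrast 0.0% of probe sets were called and 3.08% had an unadjusted p under 0.05, and Igfbp3 was the 1 member among them. It was 0.59 without control non pregnant mouse 3 and 0.70 without HF pregnant mouse 5. With both diets averaged, Igfbp3 was 1.29 higher on the log2 scale in pregnant than in non pregnant mice (SE 0.19, adjusted p = 0.0288), and the 2 probe sets called of 19802 (0.0101%) were both of Igfbp3. This averaged call was kept in 6 of the 20 fits that left out 1 array. It was lost without HF pregnant mouse 2, 3 or 5, HF non pregnant mouse 2, 3 or 4, control pregnant mouse 1, 3, 4 or 5, or control non pregnant mouse 1, 2, 4 or 5, with adjusted p values of up to 0.0917 and log2 differences of 1.21 to 1.42 over the 20 fits. It was also lost with no filter (adjusted p = 0.0531), with a replicate block (adjusted p = 0.0804) and without the 2 arrays with pancreatic transcripts, where the difference was 1.26 (adjusted p = 0.0850). Of all probe sets 4.59% had an unadjusted p under 0.05 in the averaged comparison, and 4 members did, Igfbp3, Igfbp7, Igf1 and Igf2r.

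Igfbp3 was 0.88 higher on the log2 scale in HF pregnant over control pregnant mice (SE 0.27, adjusted p = 0.211) and 0.45 higher in HF over control mice with both pregnancy states averaged (SE 0.19, unadjusted p = 0.0330, adjusted p = 0.145), and neither passed the test. Across the 20 mice, after the group means were removed, Igfbp3 was the 1 member with no relation to a cell type marker list that passed, and its Pearson r with the 12 lists lay between -0.45 with smooth muscle and pericyte genes and 0.21 with liver genes. With the mean level of B and T cell genes as a covariate, its log2 difference in HF pregnant over HF non pregnant mice was 1.73 (adjusted p = 0.0185).

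**Figure D2:**
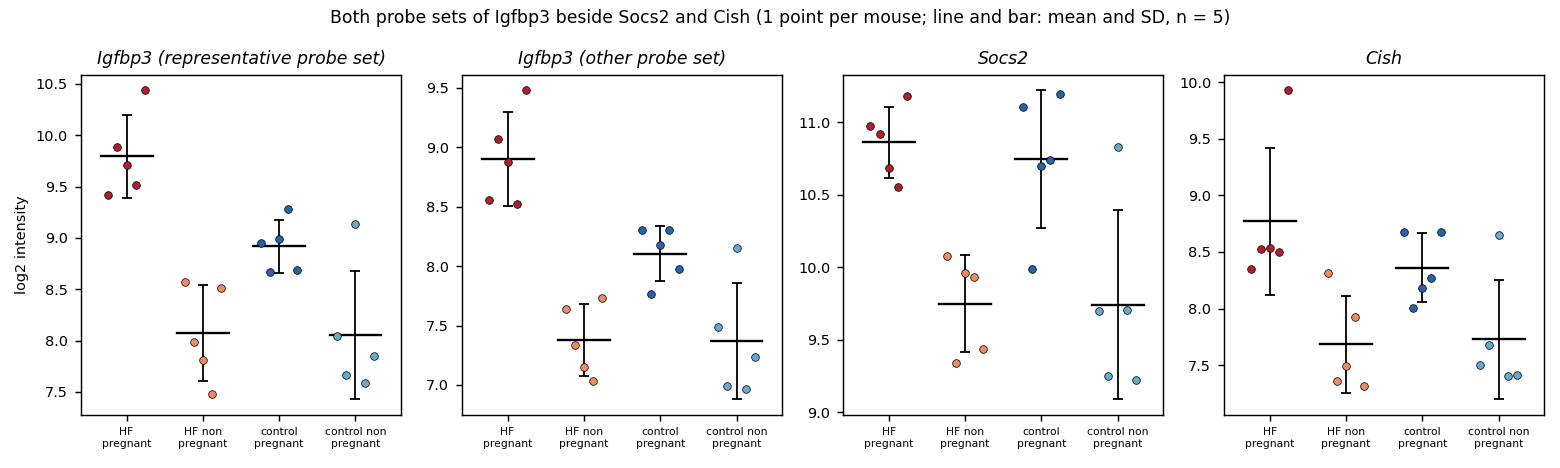
Log2 intensity (vertical axis) of both probe sets of Igfbp3 and of Socs2 and Cish in HF pregnant, HF non pregnant, control pregnant and control non pregnant mice, with 1 point per mouse and the mean and SD as line and bar (n = 5). On both probe sets of Igfbp3 the HF pregnant mice lie highest and the 2 non pregnant groups lie lowest, apart from control non pregnant mouse 3, while Socs2 is at similar means of 10.86 and 10.75 in the 2 pregnant groups.

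Igfbp4, a secreted inhibitor of IGF action that the protease PAPP-A cleaves, had intensities of 7018, 6905, 6655, 6198 and 5817 in HF pregnant mice. Control pregnant mice had 3854, 4686, 4509, 5309 and 5385. These groups did not overlap, with the lowest HF pregnant mouse at 5817 and the highest control pregnant mouse at 5385. HF non pregnant mice had 6425, 6619, 6282, 5235 and 5098, and control non pregnant mice had 6157, 6361, 4668, 5095 and 4175, and these groups overlapped. The log2 difference in HF pregnant over control pregnant mice was 0.46 (SE 0.12, unadjusted p = 0.00133, adjusted p = 0.141), and with both pregnancy states averaged it was 0.32 in HF over control mice (SE 0.09, adjusted p = 0.0654). The other 5 probe sets of Igfbp4 were also higher in HF pregnant over control pregnant mice, by 0.19 to 0.56 on the log2 scale, and none passed. The averaged diet difference passed when control pregnant mouse 2 or 4, control non pregnant mouse 1 or 2 or HF non pregnant mouse 4 was left out, at log2 differences of 0.32 to 0.35 and adjusted p values of 0.0315 to 0.0475. Pregnancy gave Igfbp4 log2 differences of 0.14 on the HF diet and -0.15 on the control diet, both with intervals that held 0.

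In HF pregnant over control pregnant mice, the test called 38 probe sets (0.192%) and none of the members, and 12.8% of probe sets had an unadjusted p under 0.05, against 4 members, Igfbp3, Igfbp4, Igfbp5 and Igfals. Groups that did not overlap, with HF pregnant higher, made up 1.56% of probe sets and included the members Igfbp3 and Igfbp4. In HF non pregnant over control non pregnant mice, 0.0% of probe sets were called, 17.7% had an unadjusted p under 0.05, and no member did, with log2 differences of the members between -0.52 and 0.17. With both pregnancy states averaged, the diet comparison called 1.24% of probe sets and none of the members, and 29.6% of probe sets had an unadjusted p under 0.05, as did Igfals, Igfbp3 and Igfbp4. The share of members at an unadjusted p under 0.05 thus stood close to that of all probe sets in the averaged diet comparison.

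Igfbp5, which binds the extracellular matrix and can form the complex with the acid-labile subunit, had intensities of 4795, 4272, 3589, 4125 and 3635 in HF pregnant mice. Control pregnant mice had 2614, 1424, 3302, 3351 and 4141, of which 1 lay within the range of the HF pregnant mice. HF non pregnant mice had 3194, 4629, 3650.2, 2803 and 2469, and control non pregnant mice had 4157, 4806, 2691, 3356 and 2266. The log2 difference in HF pregnant over control pregnant mice was 0.54 (SE 0.25, unadjusted p = 0.0461, adjusted p = 0.379). It was 0.30 without control pregnant mouse 2, whose array held pancreatic transcripts, and the second probe set of Igfbp5 gave 0.02 (SE 0.10).

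Igfbp6, a binding protein that prefers IGF2, had intensities of 2182, 2529, 1999, 2163 and 1746 in HF pregnant mice and 1713, 1807, 2438, 1894 and 1019 in HF non pregnant mice. Among controls, pregnant mice had 1642, 740.0, 2179, 2319.6 and 2643, and control non pregnant mice had 2162, 2991, 2138, 1635 and 1180.3. All groups overlapped, the 5 HF pregnant mice lay closest together, and the SD of their log2 values was 0.20 against 0.74 in control pregnant mice (n = 5 each). No comparison gave Igfbp6 an unadjusted p under 0.05.

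Igfbp7, a secreted protein of vessel walls and matrix that binds IGFs weakly, had intensities of 10689.8, 10942, 9483, 10554 and 10677 in HF pregnant mice. HF non pregnant mice had 7454, 7607, 8741, 8221 and 6785, so the lowest HF pregnant mouse was above the highest HF non pregnant mouse. On the control diet, pregnant mice had 9846, 6360.4, 9939.9, 9645 and 10142, and control non pregnant mice had 8733, 8506, 9502, 7247 and 6556. All control pregnant mice but mouse 2 were above all control non pregnant mice. The log2 difference was 0.44 in HF pregnant over HF non pregnant mice (SE 0.12, unadjusted p = 0.00251, adjusted p = 0.509) and 0.30 in pregnant over non pregnant mice with both diets averaged (SE 0.09, adjusted p = 0.593). In control pregnant over control non pregnant mice it was 0.17 (SE 0.12), and 0.30 without control pregnant mouse 2 (adjusted p = 1.0). The other 2 probe sets of Igfbp7 gave 0.39 and 0.12 in HF pregnant over HF non pregnant mice. Mesothelium markers moved in the same direction. The mean level of 9 such genes ran from 0.02 to 0.33 in HF pregnant mice and from -0.95 to 0.24 in HF non pregnant mice, a difference of 0.48 (two-sided exact permutation test p = 0.0238, adjusted p = 0.571), and their part in the difference in Igfbp7 was not tested.

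Igfals, whose product lengthens the time IGFs stay in blood and is made chiefly in liver, had intensities of 126, 174, 172, 112 and 284 in HF pregnant mice. Control pregnant mice had 508, 141, 407, 205 and 253. HF non pregnant mice had 169, 308, 171, 306 and 103, and control non pregnant mice had 292, 245, 378, 265 and 239. The groups overlapped, with 3 HF non pregnant and 4 HF pregnant mice below all control non pregnant mice. Control pregnant mice 2 and 4, at 141 and 205, were also below all control non pregnant mice. The log2 difference was -0.73 in HF pregnant over control pregnant mice (SE 0.35, unadjusted p = 0.0490, adjusted p = 0.387) and -0.63 in HF over control mice with both pregnancy states averaged (SE 0.25, unadjusted p = 0.0197, adjusted p = 0.122). Without control pregnant mouse 2 the averaged difference was -0.75 and passed (adjusted p = 0.0367), and with B and T cell genes as a covariate it was -0.29 (adjusted p = 0.342). The level of 4 brown fat genes (Cidea, Cox7a1, Cox8b and Elovl3) differed in the same direction, with -1.05 to -0.30 in HF pregnant and -0.31 to 1.12 in control pregnant mice, a difference of -1.18 (two-sided exact permutation test p = 0.0159, adjusted p = 0.571), and their part in the difference in Igfals was not tested. Ucp1 and Dio2, also on the brown fat list, were not above 100 on any array and did not enter this level. The relation of Igfals to liver genes across mice was near 0 (Pearson r = -0.01).

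**Figure D3:**
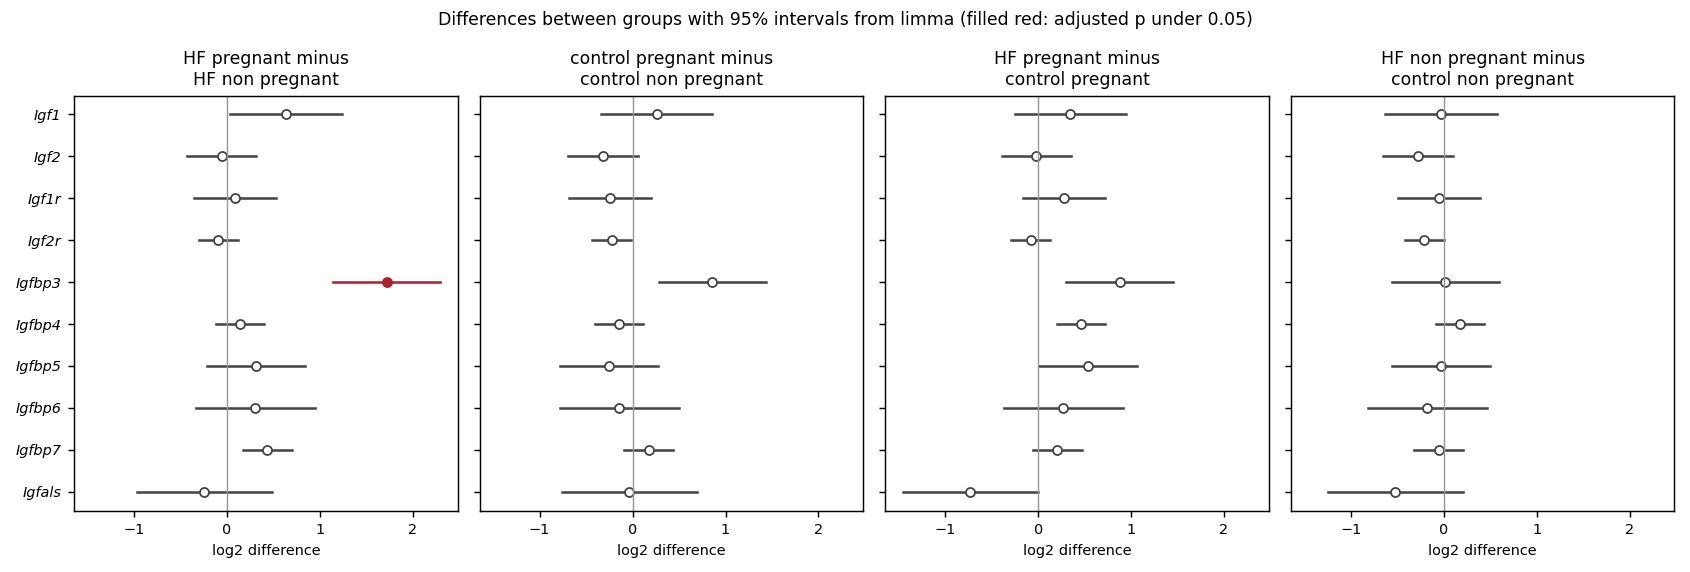
Log2 differences (horizontal axis) with 95% intervals from limma for the 10 genes (rows) in 4 comparisons of groups, HF pregnant over HF non pregnant, control pregnant over control non pregnant, HF pregnant over control pregnant and HF non pregnant over control non pregnant (n = 5 each). Igfbp3 at 1.72 in the first panel is the 1 filled red point, with an adjusted p under 0.05.

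Taken over the 10 members, the median log2 difference was 0.22 in HF pregnant over HF non pregnant mice, with 7 of 10 positive, beside a median of -0.01 over all 19802 probe sets. It was -0.15 in control pregnant over control non pregnant mice, with 3 of 10 positive, beside 0.00 over all. The median was 0.28 in HF pregnant over control pregnant mice (7 of 10 positive, 0.05 over all) and -0.05 in HF non pregnant over control non pregnant mice (2 of 10 positive, 0.01 over all). Thus 7 of 10 members were higher in HF pregnant mice than in each neighbouring group, and only Igfbp3 against HF non pregnant mice passed. Both comparisons share the HF pregnant mice, and several members varied together across mice, so these signs are not independent. The share of positive differences over all probe sets is not given here, so no result about the set is drawn.

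Across mice, most members followed cell type markers. The same relations were not computed for other genes, so the number that passed is not read as particular to the members. Deviations from the group means were used, and 120 relations between members and marker lists were tested over 20 mice by permutation, of which 25 passed by both Pearson's r and Spearman's rho after adjustment. The marker levels themselves differed between mice of a group, and in whole tissue fewer cells of a type and less RNA per cell cannot be told apart. Igfbp3 had no such relation, Igf1r had 1, and the other 8 members are described in 2 sets by the lists they followed.

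Igf1, Igf2, Igf2r and Igfals were low in mice with high lymphoid markers. With B cell genes the Pearson r was -0.82 for Igf1 (rho = -0.79, permutation adjusted p = 0.0012 and 0.00436), -0.85 for Igf2 (rho = -0.89, adjusted p = 0.0012 and 0.0006), -0.74 for Igf2r (rho = -0.73, adjusted p = 0.0084 and 0.0105) and -0.81 for Igfals (rho = -0.77, adjusted p = 0.00314 and 0.00609). Without the 2 mice farthest from the median of the B cell level, these were -0.78, -0.87, -0.76 and -0.72. T cell genes and lymph node stroma genes gave relations of the same sign that also passed for all of these genes. The sign was not particular to them. With B cell genes the Pearson r was also negative for Igfbp5 (-0.50), Igfbp6 (-0.43), Igfbp7 (-0.55) and Igfbp4 (-0.06), and none of these passed. Without the 2 mice farthest in B cell level they were -0.73, -0.65, -0.59 and -0.46. With adipocyte genes, Igf1 had an r of 0.88 (rho = 0.90, permutation adjusted p = 0.0008 and 0.0006), Igfals 0.85 (rho = 0.79) and Igf2 0.79 (rho = 0.80). Igf2 was also related to mesothelium genes (r = 0.69), Igf1 to endothelium genes (r = 0.63) and Igfals to brown fat genes (r = 0.66). The HF pregnant mouse with the highest Igf1, mouse 5, had the lowest B cell level of its group, -1.64, against 0.58 to 0.97 in the other HF pregnant mice. HF non pregnant mouse 5, with the lowest Igf1, had the highest B cell level of all mice, 2.21.

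Igfbp4, Igfbp5, Igfbp6 and Igfbp7 followed fibroblast or mesothelium genes. With mesothelium genes the r was 0.96 for Igfbp6 (rho = 0.91, permutation adjusted p = 0.0006 for both, 0.93 without the 2 farthest mice), 0.88 for Igfbp7 (rho = 0.77, 0.74 without them) and 0.85 for Igfbp5 (rho = 0.78, 0.71 without them). With fibroblast and adipose progenitor genes it was 0.87 for Igfbp5 (rho = 0.90), 0.81 for Igfbp6 (rho = 0.79) and 0.72 for Igfbp4 (rho = 0.71). Igf1r stood apart and followed smooth muscle and pericyte genes, with an r of 0.75 (rho = 0.80, permutation adjusted p = 0.00765 and 0.0042, 0.89 without the 2 farthest mice).

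**Figure D4:**
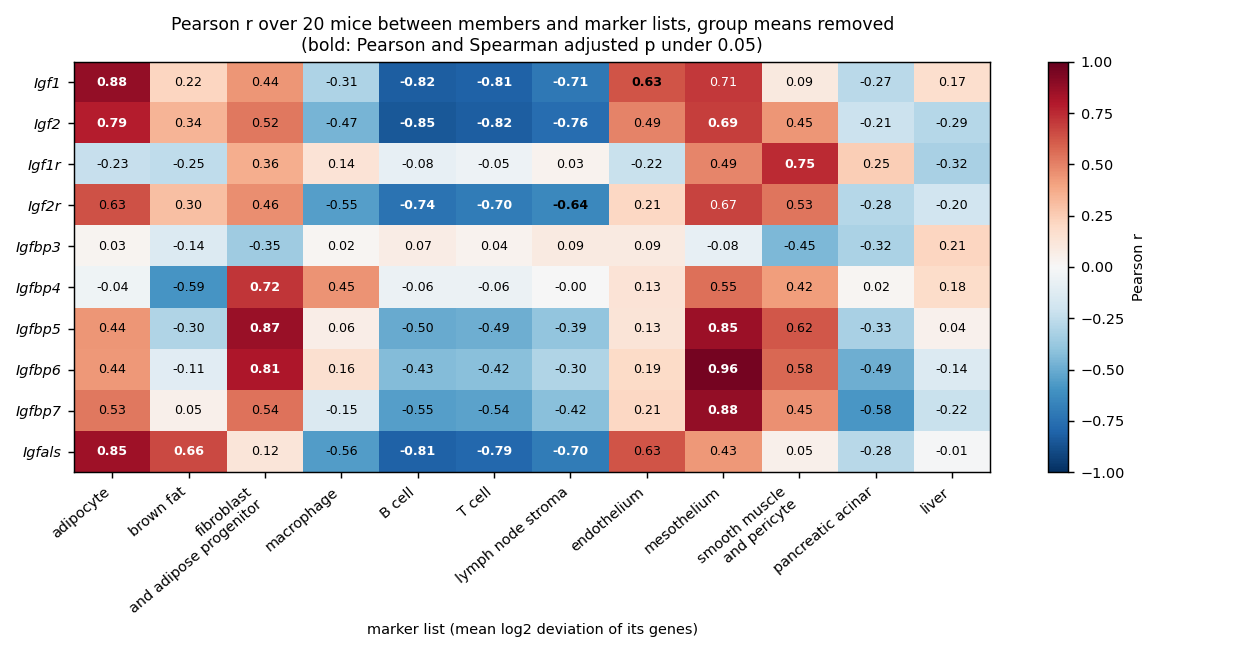
Pearson r across 20 mice, with group means removed, between the 10 genes (rows) and the mean log2 level of 12 marker lists (columns), where red is positive, blue is negative and bold marks relations that passed by Pearson and Spearman. Igf1, Igf2, Igf2r and Igfals are negative and bold with B cell, T cell and lymph node stroma genes. In the mesothelium column Igfbp5, Igfbp6 and Igfbp7 are highest (0.85 to 0.96), and no cell in the row of Igfbp3 is bold.

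Of the 45 pairs of members, 7 passed by both measures across the 20 mice. The pairs with the highest r were Igfbp6 with Igfbp7 (0.88, rho = 0.78), Igfbp5 with Igfbp6 (0.86, rho = 0.78), Igf2 with Igf2r (0.86, rho = 0.82) and Igf1 with Igfals (0.81, rho = 0.76). The other 3 were Igfbp4 with Igfbp5 (0.69), Igf2 with Igfals (0.67) and Igf2 with Igfbp7 (0.66). No pair with Igfbp3 or Igf1r passed.

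The genes most like each member were ranked by Pearson r of log2 intensity over the 20 arrays among 10593 other genes, as a description. For Igfbp3 they were Selenos (0.85), Slc3a2 (0.84), Cish (0.83), Nmb (0.82) and Clec10a (0.81), and with the group means removed these were 0.49, 0.78, 0.63, 0.51 and 0.57. For Igf1 they were Grb10 (0.95), Rhbdl1 (0.94), Lrrc58 (0.92), Slc1a3 (0.91) and Pcsk5 (0.91), of which Grb10 encodes an adaptor that inhibits the insulin and IGF1 receptors. Igfbp6 was most like Upk3b and Msln (0.96 each), both of the mesothelium list, and Col1a2 (0.93). For the others the closest genes were Tsen34 for Igf2 (0.93), Mfsd6 for Igf1r (0.95), Ptms for Igf2r (0.95), C1s1 for Igfbp4 (0.91), Plagl1 for Igfbp5 (0.92), Ldb3 for Igfbp7 (0.93) and Znrd1as for Igfals (0.96).

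Other genes of the pathway were read from 4 lists. Of the growth hormone and prolactin axis 7 of 8 listed genes were tested, and none passed in any comparison. Socs2 and Cish, feedback inhibitors induced by STAT5, had the largest differences of this list in pregnant over non pregnant mice with both diets averaged. Both were named after their values were seen. Socs2 was at 2014, 1939, 1649, 1506 and 2318 in HF pregnant mice and at 1083, 648, 995, 978 and 695 in HF non pregnant mice, which did not overlap, as was the case for 0.641% of probe sets with HF pregnant higher. On the control diet it ran from 1014 to 2346 in pregnant and from 598 to 1817 in non pregnant mice. The highest of the non pregnant controls was mouse 3, with 1817 for Socs2 and 402.2 for Cish, which also had the highest Igfbp3 of its group, 560.5. The log2 difference in Socs2 was 1.06 in pregnant over non pregnant mice with both diets averaged (SE 0.19, adjusted p = 0.0944), and that in Cish was 0.86 (SE 0.21, adjusted p = 0.350). Ghr, the growth hormone receptor, differed by 0.14 (SE 0.18) in the same comparison. Over the 7 tested genes of this list the median there was 0.14, with 5 positive. On the HF diet, pregnancy gave log2 differences of 0.01 in Socs3, -0.06 in Jak2, -0.03 in Stat5a and -0.03 in Stat5b. On the control diet these were 0.72, 0.04, 0.08 and -0.02.

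Of receptor-proximal signalling, 16 of 20 listed genes were tested. Foxo1, a transcription factor that insulin and IGF signalling keeps out of the nucleus, rose in HF over control mice with both pregnancy states averaged (log2 difference 0.33, SE 0.08, adjusted p = 0.0491), and it was the 1 gene of this list to pass in any comparison. Foxo1 ran from 1145 to 1468 in HF pregnant mice and from 1051 to 1518 in HF non pregnant mice. In control mice it ran from 1053 to 1241 with pregnancy and from 819 to 1158 without it. Of the proteases that cleave binding proteins and their inhibitors, 7 of 11 listed genes were tested. Ctsd, the lysosomal protease cathepsin D, which can cleave IGFBPs and is among the cargo of IGF2R, was at 3384, 3991, 3949.9, 4199 and 4304 in HF pregnant mice. It was at 10312, 5660.0, 10238, 6411 and 7669 in control pregnant mice, so these groups did not overlap, as was the case for 1.95% of probe sets with HF pregnant lower. Without pregnancy, HF mice had 5539.9, 5889.5, 5132, 6617 and 3769, and control mice had 5956, 5285, 9597, 8095 and 8527, and these groups overlapped. The log2 intensity of Ctsd fell by 0.99 in HF pregnant over control pregnant mice (SE 0.19, adjusted p = 0.0404) and by 0.72 in HF over control mice with both pregnancy states averaged (SE 0.14, adjusted p = 0.0193). It differed by -0.46 in HF non pregnant over control non pregnant mice (unadjusted p = 0.0261, adjusted p = 0.281) and by -0.42 in HF pregnant over HF non pregnant mice (adjusted p = 1.0), and neither passed. Of the other binding proteins and RNA partners 2 of 9 listed genes were tested, Lrp1 and Tmem219, and neither passed. Igfbp1 and Igfbp2 were on this list and had no tested probe set.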

How the data were processed

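RNA of mesenteric visceral fat of 20 mice was hybridized by the authors to Affymetrix Mouse Genome arrays, and neither a scan date nor a batch is given in the sources used here. The authors normalized the scans by robust multi-array average (RMA, affy package, R 2.8.0, per the submitters' processing notes), and the deposited values are intensities on the linear scale for 45101 probe sets. RMA brings all arrays close to 1 distribution, so changes are relative to it.

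The log2 of each deposited intensity was taken. Of the probe sets, 64 controls were left out and 19802 with intensities above 100 on at least 5 of 20 arrays were tested by fitting 4 group means (limma 3.58.1, R 4.3.3, empirical Bayes moderation). Of 28 probe sets of the members 25 were tested, and the brightest probe set of 1 symbol on average stood for a gene. The members and lists were chosen with earlier results of these data known. A member's log2 difference was printed in full where its unadjusted p was under 0.05, with others as ranges. Listed genes were named where they passed. Socs2 and Cish were named after their values were seen, with Ghr, Socs3, Jak2, Stat5a and Stat5b beside them. Each other gene was named by likeness. Marker levels are mean log2 deviations of genes above 100 on at least 1 array, compared by exact permutation over 252 regroupings, and relations by 100000 permutations within groups. The number of arrays limits the precision. Procedures were checked on simulated data. Mice of the same replicate number were not treated as pairs in the main fit. The deviations of 30 same-numbered pairs correlated with a median r of -0.16, from -0.75 to 0.67 (10 above 0.1). These pairs share arrays, so their r cannot settle whether the numbers mark pairs or a batch. Alternatives were another filter or none, trend and robust moderation, array weights, only the groups compared, array medians, repeated quantile normalization, means of probe sets, a replicate block, single arrays left out, an unadjusted rule, a floor at 100, the arrays with pancreatic transcripts left out and lymphoid markers as a covariate. The rank product of the study's methods was not run.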

Additional observations from a re-analysis of the deposited data

Results flagged for a closer look

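In 4 of 40 sets of 5 mice, 10 genes in 4 groups, 1 mouse lay far from the other 4, by a gap to the nearest mouse over the range of the group above 0.71. Chance gives about 1 in 20 such sets. They were Igf1 in HF non pregnant mouse 5 (ratio 0.723, intensity 1432), Igf2 in HF pregnant mouse 3 (0.761, intensity 140.1), Igfbp7 in HF pregnant mouse 3 (0.747, intensity 9483) and Igfbp7 in control pregnant mouse 2 (0.892, intensity 6360.4). HF non pregnant mouse 5 had the highest B cell level of all mice, 2.21, and control pregnant mouse 2 the highest pancreatic level, 6.07.

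The response of Igfbp3 to pregnancy exceeded on the HF diet that on the control diet by 0.86 on the log2 scale, with an unadjusted p of 0.0400 in limma and an adjusted p of 0.933. It was positive in all 31 alternatives fitted, at 0.59 to 0.98, and passed in none of them.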

How the results depend on the processing

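The direction of Igfbp3 held in every alternative run, at log2 differences of 1.56 to 1.84 in HF pregnant over HF non pregnant mice, where 24 of 32 alternatives kept the call, and at 1.21 to 1.42 in pregnant over non pregnant mice, where 14 of 31 did. With single arrays left out, the number of members called ran from 0 to 1 in both of these comparisons and from 0 to 2 in HF over control mice, with both pregnancy states averaged. With the replicate block the count was 0 in HF pregnant over HF non pregnant mice (Igfbp3 adjusted p = 0.107) and 0 in pregnant over non pregnant mice (adjusted p = 0.0804). It was also 0 in the first with only the groups compared, and 0 in the second with no filter (adjusted p = 0.0531) or without the arrays with pancreatic transcripts. Array quality weights gave 3 members in HF pregnant over HF non pregnant, 2 in HF pregnant over control pregnant, 3 in HF non pregnant over control non pregnant, 5 in pregnant over non pregnant and 4 in HF over control mice, and the cause was not tested. The unadjusted p under 0.05 with a 1.5-fold change gave 2 in HF pregnant over HF non pregnant, 1 in control pregnant over control non pregnant, 2 in HF pregnant over control pregnant, 1 in the difference of the responses and 1 in HF over control mice. The share of all probe sets called under these settings is not given here, so the counts are not read as results about the members. No log2 difference with an unadjusted p under 0.05 changed sign in any alternative. Igf2 lies near the threshold of 100, where intensities carry much background. So do the lowest values of Igfals, 103 in HF non pregnant and 112 in HF pregnant mice, and Igfals had 1 probe set only.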
